A study of Mus musculus with 4 samples.

Results

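Tetraspanins are small membrane proteins with 4 membrane-spanning helices that gather integrins, proteases and receptors into patches of the cell surface. The table of mouse spermatogonia was searched for every gene named Tspan followed by a number and for Cd9, Cd37, Cd53, Cd63, Cd81, Cd82 and Cd151. This gave 27 members, 20 with a Tspan name and 7 with a Cd name, among 19991 genes. The rule used names only, and no measured value.
RNA was sequenced from undifferentiated spermatogonia (SG, 2 samples), wild-type germ cells of the testis kept in culture with FGF, LIF (ESGRO), GDNF and EGF and given DMSO, and from differentiating spermatogonia (dSG, 2 samples), the same kind of culture given retinoic acid (RA), which starts differentiation, for 36 h. RA was at 100 µM by the labels but at 100 nM by the methods of the study, and C57BL/6 by the labels stands against DBA, or a cross of DBA with GFP mice, in the methods. The cultures had been founded from CD9+/c-Kit- cells sorted around postnatal day 5, so the protein of 1 member, Cd9, was the gate through which all 4 samples had passed. In the methods, cells to be differentiated were moved to Matrigel-coated dishes, and no source used here says whether the SG dishes were coated, so RA and the dish surface cannot be told apart. No label states that replicates were grown separately, and p-values therefore cover just the variation seen between these samples, possibly technical in origin.

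CD9 is a surface antigen by which mouse and rat spermatogonial stem cells are enriched, and TSPAN8 marks a subset of mouse spermatogonia by antibody. Other tetraspanins hold laminin-binding integrins at the membrane (CD151), carry the protease ADAM10 to the cell surface (the TspanC8 subgroup) or mark late endosomes and exosomes (CD63). In bulk RNA, fewer cells of a type and less RNA per cell cannot be told apart.

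Values are normalized counts, that is, reads per gene divided by a size factor for the library. SG replicate 1 held 7484560 reads and the other 3 libraries 22307745 to 26953654, so that 1 read was worth 3.26 normalized counts in SG replicate 1 and 0.626 to 0.725 elsewhere. SG replicate 1 stood apart from its partner: across tested genes the log2 difference within SG had an SD of 0.81, against 0.20 within dSG, and it moved with transcript GC content (Spearman's rho 0.73 across genes, which are not independent replicates). Among the tetraspanins tested the median absolute log2 difference was 0.37 for the SG pair and 0.10 for the dSG pair. Genes listed as markers of other cells were present and some moved. The fibroblast or feeder list summed to 11026 to 15212 in SG and 5310 to 5364 in dSG. Most of that sum came from Fn1 (6808 and 6891 in SG, 4363 and 4500 in dSG) and Col1a1 (5635 and 1459 in SG, 395 and 296 in dSG), neither of them called, and from Pdgfra (2229 and 2298 in SG, 345 and 349 in dSG). Of its 6 tested genes limma called Pdgfra and Thy1 lower, Thy1 being also in the list of undifferentiated spermatogonia, whereas Col1a2 went from 13.0 and 3.15 in SG to 24.7 and 35.0 in dSG (not called) and Dcn and Lum were at 8.70 or less. In the Sertoli list, summing to 535 to 818 in SG and 215 to 221 in dSG, Clu and Sox9 of 5 tested genes were called lower. Amh was lower in both dSG libraries (not called), but it passed the filter on low values through SG alone, which fixed its direction in advance. Rhox5 and Dhh, not tested, were at 18.9 or less in every library and lower in both dSG libraries. Gata1 and Wt1 overlapped between the groups, Wt1 being at 91.2 and 71.7 in SG and 86.3 and 94.5 in dSG. Of 4 tested endothelial genes (summed level 440 to 488 in SG, 191 to 223 in dSG), Pecam1 was called lower and Cdh5 overlapped between the groups. Kdr went from 91.2 and 143 in SG to 47.1 and 38.8 in dSG (not called). Tek went from 29.3 and 56.6 in SG to 74.7 and 99.5 in dSG (not called). Their part in the results was not tested. Kit, the receptor of differentiating spermatogonia, was at 319 and 347 in SG and at 5825 and 5921 in dSG, as the labels say. Among 6 listed genes of undifferentiated spermatogonia, all tested, limma called 4 lower (Etv5, Thy1, Ret and Gfra1), beside 4.91% of all tested genes. Zbtb16 and Id4 were lower in both dSG libraries (not called). Of 5 listed genes of differentiating spermatogonia, limma called 2 higher (Kit and Stra8), beside 1.16% of all tested genes. Sohlh2 was higher in both dSG libraries (not called), and Sohlh1 overlapped between the groups. Dmrtb1 went the other way, from 1111 and 475 in SG to 435 and 396 in dSG (not called). Of 7 listed germ cell genes, Ddx4, Dazl, Tex14, Mael, Sall4 and Uchl1 were at 2043 or more in all 4 libraries. Dppa3, the remaining gene, was at 13.0 or less in every library. Most listed germ cell genes were thus well expressed in the samples, as their label says.

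All 27 tetraspanins had reads in both dSG libraries and in SG replicate 2, and 23 had reads in SG replicate 1. Cd9 had the highest level of the family for its length in every library, at 864 and 800 normalized counts per kb of exon in SG and 457 and 491 in dSG. Tspan14, which escorts ADAM10, came next in SG with 788 and 521 per kb, and stood at 380 and 387 in dSG. Cd82 was next at 568 and 455 per kb, below Tspan14 within each SG library, although the level of Tspan14 spread more between the SG libraries than this distance. Cd151, Tspan3, Cd81, Tspan4 and Tspan9 followed in SG. The same 8 members made up 81.8% and 82.3% of the per-kb signal of the family in SG, and 84.6% and 84.9% in dSG. At the other end, 7 members never exceeded 29 reads in a library, and 20 members passed the filter of at least 20 normalized counts in at least 2 libraries.

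**Figure D1:**
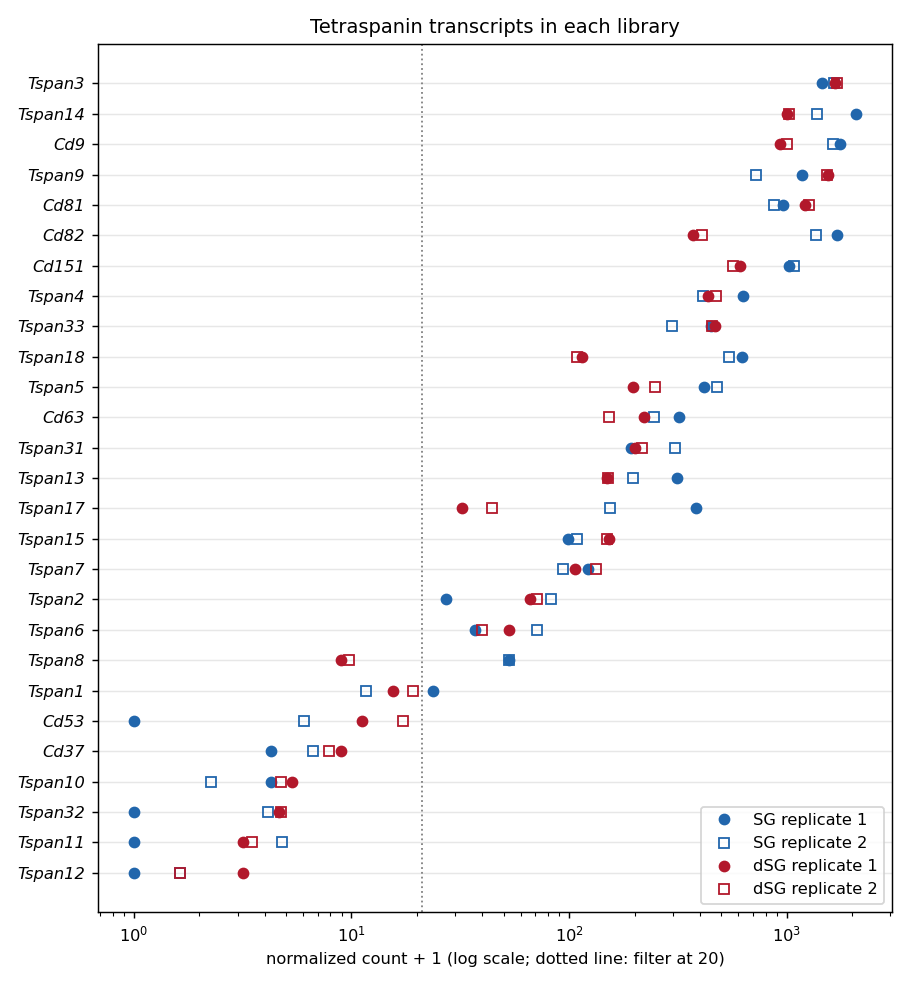
Normalized count plus 1 (x axis, log scale) of each of the 27 tetraspanins (rows, ordered by mean) in each library, with SG in blue, dSG in red, circles for replicate 1 and squares for replicate 2. Cd82, Tspan18, Tspan17 and Tspan8 show the widest gap between the blue and the red points, and members under the dotted line at 20 had few reads.

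The question was which tetraspanin transcripts differed between SG and dSG. The log2 ratio of dSG to SG (the fold change of the plots) was taken on log2(normalized count + 4), a scale on which low genes appear to change less than they do, and tested with limma over all 14108 genes that passed the filter, with adjusted p-values after Benjamini and Hochberg. Of the 20 tetraspanins tested, 3 fell (Cd82, Tspan18 and Tspan8), beside 4.91% of all tested genes called lower, and none rose by limma, beside 1.16% called higher (6.07% in either direction). Tspan8 had passed the filter through its SG values alone, which fixed its direction in advance. At an unadjusted p under 0.05, limma gave 8 members lower and 0 higher, beside 16.3% and 10.5% of all genes. The same 3 were lower by edgeR (6% of all genes lower, 1.4% higher), and DESeq2 added Tspan17 (10.4% lower, 3.32% higher), with 0 higher by either. Once the GC content of transcripts was regressed out of each library, 6 members were lower and 2 higher, beside 13.2% and 8.15% of all genes, and with weighted samples 3 were lower and 0 higher, beside 6.93% and 2.15%. The dSG values lay below both SG values for 10 of the 20 members, beside 32.7% of all tested genes, and above both for 5, beside 33.2%. The median log2 ratio of the members was -0.42, against 0.01 over all genes tested.

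**Figure D2:**
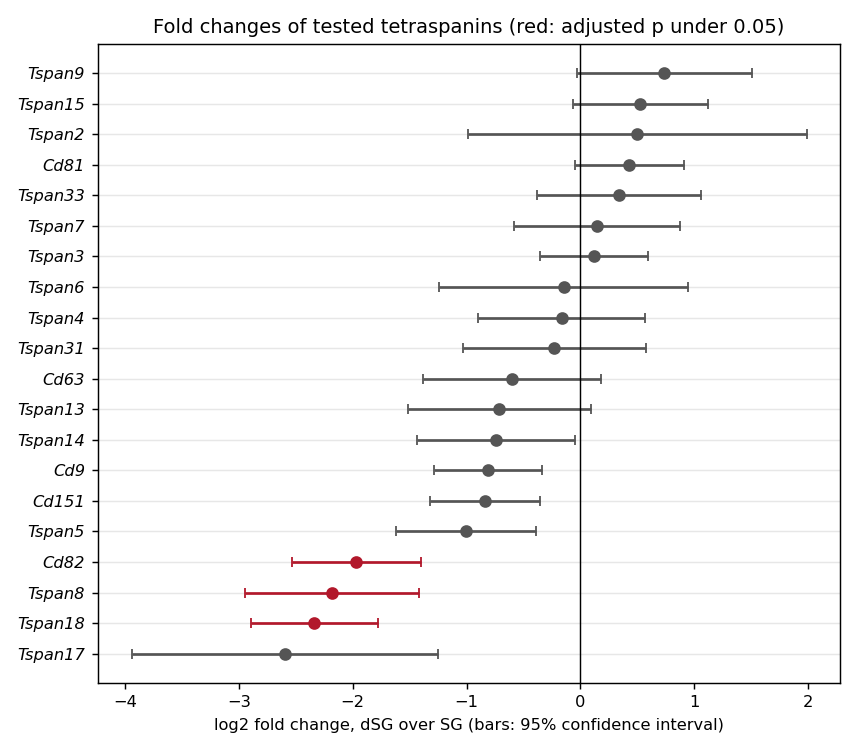
Log2 fold change of dSG over SG (x axis) of the 20 tested tetraspanins (rows), with the 95% confidence interval from limma as bars and called members in red. Tspan18, Tspan8 and Cd82 are red, and the interval of Tspan17, with the most negative estimate, is the widest of the 4.

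Cd82 (ENSMUSG00000027215), known in human tumours as the metastasis suppressor KAI1 and a partner of integrins and of the EGF receptor, was the most abundant member that fell. Its normalized count was 1708 and 1367 in SG and 368 and 408 in dSG, groups that did not overlap. The level in SG (1537 ± 241, SD, n = 2) was 3.96 times that in dSG (388 ± 28.0, SD, n = 2), a log2 ratio of -1.97 (SE 0.21, limma adjusted p 0.0261). Tspan18 (ENSMUSG00000027217), which binds the calcium channel Orai1 in human endothelial cells, was at 619 and 540 in SG and 114 and 108 in dSG. Both dSG libraries thus held about the same low level, and the SG mean (579.5 ± 56.1, SD, n = 2) was 5.22 times the dSG mean (111 ± 3.96, SD, n = 2). The log2 ratio of Tspan18 was -2.34 (SE 0.21, limma adjusted p 0.0254). The pair are neighbours: on chromosome 2 of GRCm38, Tspan18 lies from 93201760 to 93334505 and Cd82 from 93419111 to 93463140, on the same strand with 84.6 kb between them. The ratio of Tspan18 to Cd82 within a library was 0.363 and 0.395 in SG and 0.309 and 0.265 in dSG. Cd82 did not pass limma without dSG replicate 1 (adjusted p = 0.0833) or without dSG replicate 2 (adjusted p = 0.0504), where the SG pair alone sets the spread, whereas Tspan18 passed in every alternative run (adjusted p at most 0.0343).

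Tspan8 (ENSMUSG00000034127; chromosome 10, 115816832 to 115849893), a partner of E-cadherin and integrins in carcinoma cells of humans and the spermatogonial surface marker named above, had the lowest mean of the tested members. It was at 52.1 and 52.2 in SG and at 7.98 and 8.76 in dSG, so the 2 libraries of each group all but coincided. These values stand for few reads: 16 and 83 in the SG libraries, 11 and 14 in the dSG libraries. The exact Poisson interval (95%, counting error only) in SG replicate 1 ran from 29.8 to 84.7 normalized counts, so the match of the SG pair is closer than its depth can show. The SG mean (52.2 ± 0.0608, SD, n = 2) was 6.23 times the dSG mean (8.37 ± 0.554, SD, n = 2), and the log2 ratio was -2.18 (SE 0.29, limma adjusted p 0.0324). It was -2.60 by edgeR (adjusted p = 0.0244) and -0.93 at a pseudocount of 40, which swamps a gene of this level. Tspan8 did not pass limma without dSG replicate 1 (adjusted p = 0.177), without dSG replicate 2 (adjusted p = 0.152) or with weighted samples (adjusted p = 0.0739). Tspan8 passed the filter through its SG values alone, which fixed its direction in advance, and without the filter it still passed limma (adjusted p = 0.0452). Among epithelial genes, which include partners of Tspan8, all 5 tested of 8 listed (Krt8, Krt18, Krt19, Cdh1 and Epcam) were lower in dSG by limma, beside 4.91% of all tested genes. Krt8, at 3.63 and 3.76 in dSG, likewise passed the filter through SG alone. The summed level of the epithelial list was 4174 to 4817 in SG and 1714 to 1793 in dSG. Most of that sum came from Epcam (3578 and 3526 in SG, 1664 and 1572 in dSG). Cldn3, Cldn4 and Cldn7 were at 45.6 or less in every library. The part of the epithelial genes in the Tspan8 values was not tested.

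Tspan17, another escort of ADAM10, had the most negative estimate of the family but did not pass limma. It was at 381 and 154 in SG and at 31.2 and 43.2 in dSG, so the groups were far apart but the SG libraries differed 2.48-fold between themselves. The log2 ratio of Tspan17 was -2.60 (95% interval -3.94 to -1.25, limma adjusted p 0.0640). Its transcript has 59.6% GC, the highest of the family, and across genes SG replicate 1 over SG replicate 2 rose with GC content. Which SG library departed, and the part of GC content in the Tspan17 values, was not tested. Leaving out SG replicate 1 gave -1.95 and leaving out SG replicate 2 gave -3.24, and after GC content was regressed out of each library the value was -1.99 (adjusted p = 0.0124). By DESeq2 the call was made (adjusted p = 3.01e-06), and by edgeR it was missed (adjusted p = 0.0501).

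Cd9, the egg protein that mouse sperm need for fusion and the antigen of the founding sort, was at 1766 and 1635 in SG and at 935 and 1003 in dSG. The groups did not overlap, and the SG mean (1701 ± 93.0, SD, n = 2) was 1.75 times the dSG mean (969 ± 48.3, SD, n = 2). The log2 ratio of Cd9 was -0.81 (95% interval -1.28 to -0.34), with an adjusted p of 0.0773 from limma. It passed after the GC correction, at -1.04 (adjusted p = 0.0181). Cd9 lies on chromosome 6 from 125460266 to 125494791, and 22.9% of its longest transcript is shared, in runs of 50 bases, with Gm26728 and the pseudogene Cd9-ps, so some of its reads may have been placed elsewhere.
Cd151, which binds the laminin receptors of the integrin family, was at 1020 and 1084 in SG and at 610 and 567 in dSG. Its log2 ratio was -0.83 (95% interval -1.32 to -0.35, limma adjusted p 0.0763). Cd9 and Cd151 were thus lower in both dSG libraries, with intervals that left out 0, and did not pass once p-values were adjusted over all genes. The GC correction moved them apart, with Cd151 at -0.54 (95% interval -1.08 to 0.013, adjusted p = 0.137 from limma), where it did not pass and the interval took in 0.
Tspan14 was at 2089 and 1382 in SG and at 1006 and 1025 in dSG, without overlap. Its log2 ratio of -0.74 (95% interval -1.44 to -0.044, limma adjusted p 0.173) became -0.44 without SG replicate 1 and -1.04 without SG replicate 2. Tspan5, which like Tspan14 and Tspan17 belongs to the TspanC8 subgroup, was at 414 and 477 in SG and at 196 and 247 in dSG. Its log2 ratio was -1.0 (95% interval -1.62 to -0.39, limma adjusted p 0.0838), and -1.02 after the GC correction, where it passed (adjusted p = 0.0233).

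Cd81, the close relative of Cd9, lay the other way. It was at 961 and 871 in SG and at 1213 and 1260 in dSG, without overlap, and its log2 ratio was 0.43 (95% interval -0.046 to 0.91, limma adjusted p 0.214). Tspan9, studied mostly in platelets, was at 1173 and 722 in SG and at 1541 and 1538 in dSG. Its log2 ratio of 0.74 (95% interval -0.028 to 1.51, limma adjusted p 0.196) became 1.09 when SG replicate 1 was left out and 0.39 when SG replicate 2 was. After the GC correction both were called higher, Cd81 at 0.50 (adjusted p = 0.0363) and Tspan9 at 1.09 (adjusted p = 0.00713).
Tspan3 was the most abundant member by normalized count in dSG, at 1453 and 1640 in SG and at 1668 and 1696 in dSG. Its log2 ratio was 0.12 (95% interval -0.35 to 0.60), and its sign turned after the GC correction. Tspan4, a component of the migrasomes that crawling cells leave behind, was at 626 and 411 in SG and at 434 and 473 in dSG, which overlapped. Its log2 ratio was -0.16 (95% interval -0.89 to 0.57), with a sign that the GC correction and the removal of SG replicate 1 each turned, and 13.4% of its exons lie opposite Chid1.

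Ratios between members of 1 library do not depend on the size factor. Cd9 over Cd81 was 1.84 and 1.88 in SG and 0.771 and 0.796 in dSG, so that Cd9 had the higher count in SG and Cd81 in dSG. Cd82 over Cd81 was 1.78 and 1.57 in SG and 0.304 and 0.324 in dSG. Tspan14 over Tspan9 was 1.78 and 1.91 in SG and 0.653 and 0.666 in dSG, a ratio that was close between the SG libraries although each gene on its own was not. These pairs were chosen after their values were seen, and with 2 libraries against 2 an exact permutation test could not reach significance, so no test is given.
As a share of the per-kb signal of the family, Cd82 held 12.3% and 11.7% in SG and 4.14% and 4.47% in dSG. Cd81 held 7.21% and 7.80% in SG and 14.2% and 14.4% in dSG, and Tspan9 went from 5.09% and 3.75% to 10.5% and 10.2%. Cd9 remained the largest share, at 18.6% and 20.6% in SG and 15.5% and 16.2% in dSG. The per-kb sum of the family was 4634 and 3877 in SG and 2958 and 3039 in dSG, and its normalized counts summed to 13844 and 11760 in SG and 9579 and 9788 in dSG, so by size factors both dSG libraries lay below both SG libraries. As a share of all reads the family took 0.0568% and 0.0693% in SG and 0.0592% and 0.0581% in dSG, where the SG libraries bracketed the dSG libraries.

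**Figure D3:**
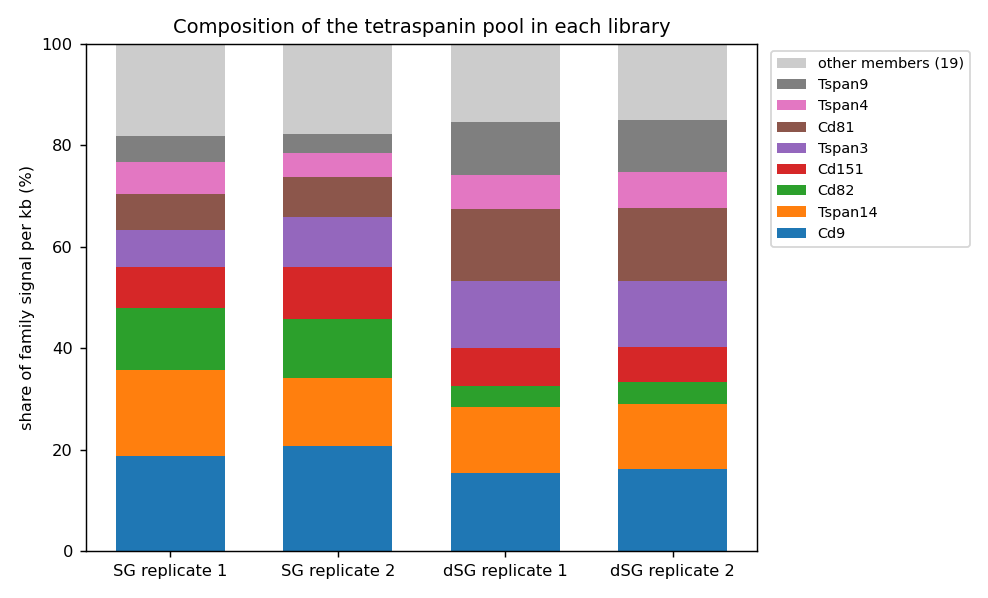
Share of the summed per-kb signal of the 27 tetraspanins (y axis, percent) held by the 8 most abundant members and by the 19 others in each of the 4 libraries (bars). Cd82 is narrower in both dSG bars, at 4.14% and 4.47%, and Cd81 and Tspan9 are wider.

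The TspanC8 subgroup (Tspan5, Tspan10, Tspan14, Tspan15, Tspan17 and Tspan33) is named for the 8 cysteines of its large extracellular loop, and its members steer ADAM10, the protease that cuts Notch receptors and cadherins. The values of its members went both ways. Tspan5, Tspan14 and Tspan17 had lower values in both dSG libraries, and Tspan15 and Tspan33 higher ones, and of the 5 tested limma called 0 (3 were lower at an unadjusted p under 0.05, beside 16.3% of all genes), as did edgeR, whereas DESeq2 called Tspan17 (beside 10.4% of all genes lower). Tspan15 was at 97.8 and 108 in SG and at 151 and 148 in dSG, with a log2 ratio of 0.53 (95% interval -0.067 to 1.12). Tspan33 was at 446 and 296 in SG and at 469 and 453 in dSG, with a log2 ratio of 0.34 (95% interval -0.38 to 1.06). The Tspan33 value was 0.63 when SG replicate 1 was left out, 0.044 when SG replicate 2 was and 0.032 after the GC correction, so its size rested on which SG library was used. Within a library, Tspan5 over Tspan15 was 4.23 and 4.43 in SG and 1.30 and 1.66 in dSG. Tspan17 over Tspan15 was 3.90 and 1.43 in SG and 0.207 and 0.291 in dSG, which puts Tspan17 above Tspan15 in both SG libraries and below it in both dSG libraries. Adam10 itself was at 1858 and 2408 in SG and at 2511 and 2613 in dSG, with a log2 ratio of 0.28 (limma adjusted p 0.417). Notch1, a substrate of ADAM10, fell from 13968 and 8722 to 1415 and 1301, a log2 ratio of -3.02 (SE 0.28, limma adjusted p 0.0254).

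None of the other tested members was called by limma, edgeR or DESeq2. Cd63 was at 319 and 245 in SG and at 220 and 152 in dSG, with a log2 ratio of -0.60 (95% interval -1.38 to 0.18), and Cd63-ps and other loci share 24.3% of its longest transcript. The Cd63 value became -0.072 after the GC correction. Tspan13 was at 313 and 196 in SG and at 149 and 150 in dSG, with -0.71 (95% interval -1.52 to 0.092). Leaving out 1 library gave Tspan13 values from -1.05 (no SG replicate 2) to -0.38 (no SG replicate 1) and Cd63 values from -0.86 (no dSG replicate 1) to -0.34 (no dSG replicate 2). For these 2 genes the groups did not overlap, although the SG libraries differed.
Tspan31, first found amplified in human sarcomas, was at 192 and 307 in SG and at 199 and 215 in dSG. It shares 29.2% of its exons with Cdk4 on the opposite strand, and the strand setting of the counting is not known, so its reads and those of Cdk4 may mix. Tspan7, a neuronal tetraspanin of the X chromosome, was at 121 and 92.5 in SG and at 105 and 131 in dSG. Tspan6, also X-linked, was at 35.8 and 69.8 in SG and at 52.2 and 38.8 in dSG. Tspan2, known from oligodendrocytes, was at 26.1 and 81.2 in SG and at 65.3 and 70.1 in dSG. In these 4 genes the groups overlapped, and their signs turned in at least 1 alternative.

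**Figure D4:**
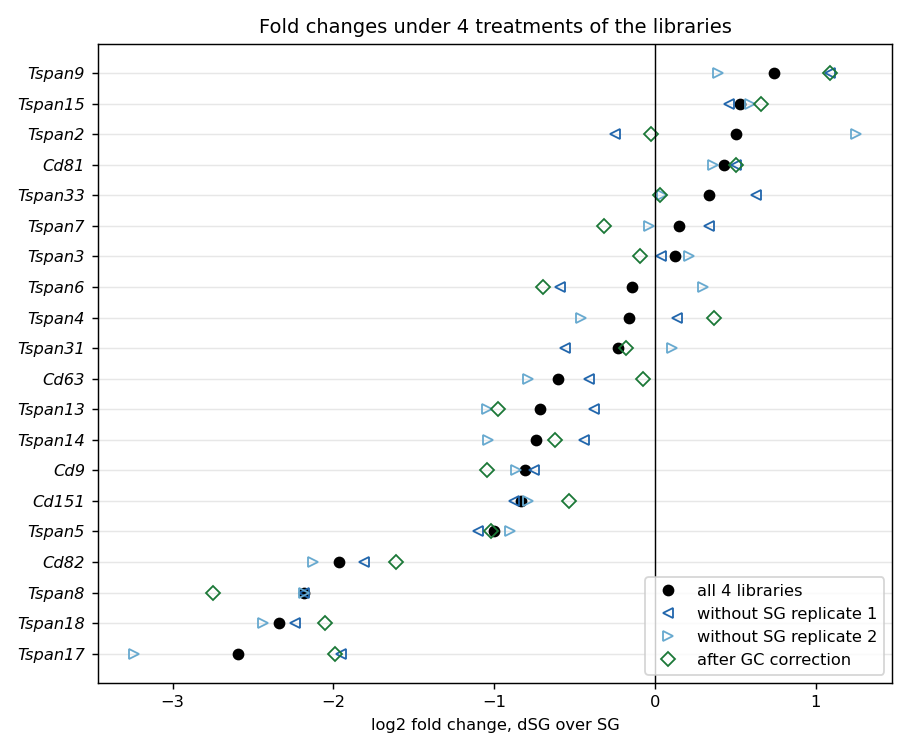
Log2 fold change of dSG over SG (x axis) of the 20 tested tetraspanins (rows) with all 4 libraries (black circles), without SG replicate 1 or SG replicate 2 (triangles) and after GC content was regressed out (green diamonds). Cd82, Tspan18, Tspan17 and Tspan8 stay far below 0 in all 4, and Tspan2, Tspan3, Tspan4, Tspan6, Tspan7 and Tspan31 cross 0.

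Of the 7 members under the filter, Cd53 and Cd37 encode tetraspanins of leukocytes. Cd53 was at 0 and 5.03 in SG and at 10.2 and 16.3 in dSG, from 0, 8, 14 and 26 reads. The 0 of SG replicate 1 allows up to 9.78 normalized counts (3 reads, counting error only). Cd37 was at 3.26 and 5.66 in SG and at 7.98 and 6.88 in dSG, from 1, 9, 11 and 11 reads. Without the filter limma called neither (adjusted p = 0.179 for Cd53 and 0.406 for Cd37). The leukocyte marker list summed to 755 to 906 in SG and 653 to 688 in dSG, and 4 of its 10 genes passed the filter. Of these, 0 were called by limma, edgeR or DESeq2 or had an unadjusted p under 0.05 from limma. Over the 4 libraries, they were Coro1a (177 to 505), Lyz2 (182 to 302), Cd68 (106 to 150) and Csf1r (25.8 to 52.1). Ptprc, which marks all leukocytes, was at 18.2 or less in every library.
Tspan1, a tetraspanin of epithelia, was at 22.8 and 10.7 in SG and at 14.5 and 18.2 in dSG. Tspan10, of pigment cells, was at 1.26 to 4.35, and Tspan32, of blood cells, at 0 to 3.76. Tspan12, which helps the receptor Fzd4 answer to norrin, had 0, 1, 3 and 1 reads, and Tspan11 had 0, 6, 3 and 4. No difference between the groups was detectable at this depth for these 5 genes. Of 4 tetraspanins with other symbols, which the name rule leaves out, Rom1 and Prph2, of photoreceptor discs, were tested with log2 ratios of 0.31 and 0.11 and were not called, and Upk1a and Upk1b, of the bladder lining, were at 16.3 or less.

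Partners of tetraspanins were taken from a written list of 51 integrins, immunoglobulin superfamily proteins, proteases, adhesion molecules, syndecans and trafficking proteins, of which 43 were tested. Of these, 6 were called lower and 1 higher by limma, beside 4.91% and 1.16% of all tested genes, at a median log2 ratio of -0.48 against 0.01 over all genes. DESeq2 called 15 lower and 4 higher, beside 10.4% and 3.32%. Beside Notch1, the genes that fell were Hbegf, Ifitm1, Cdh1, Epcam and Itgb5. Hbegf, the growth factor precursor that CD9 binds, was at 300 and 251 in SG and at 57.3 and 49.4 in dSG, a log2 ratio of -2.28 (limma adjusted p 0.0257). Cdh1, the E-cadherin that TSPAN8 joins, was at 202 and 165 in SG and at 38.4 and 51.9 in dSG, a log2 ratio of -1.94 (limma adjusted p 0.0366). Epcam, the adhesion molecule found in complexes with TSPAN8 and CD9, was at 3578 and 3526 in SG and at 1664 and 1572 in dSG, a log2 ratio of -1.13 (limma adjusted p 0.0385). Ifitm1, a membrane protein induced by interferon, was at 169 and 165 in SG and at 31.2 and 35.0 in dSG, a log2 ratio of -2.21 (limma adjusted p 0.0263). In these 4 genes, as in Notch1 and Itgb5, the dSG values lay below both SG values. Including them, this held for 22 of the 43 tested partners, beside 32.7% of all tested genes. For 12 partners the dSG values lay above both SG values, beside 33.2% of all tested genes. Itgb5, an integrin subunit, was at 2164 and 940 in SG and at 244 and 226 in dSG, a log2 ratio of -2.58 (limma adjusted p 0.0489), and its SG libraries lay far apart. Cd47, an integrin-associated protein that keeps macrophages from eating the cell, was the partner that rose, from 117 and 174 to 530 and 554, a log2 ratio of 1.89 (limma adjusted p 0.0358).
Partners of CD151, CD9 and CD81 were then looked up after the values of the list were seen. The laminin-binding integrins of CD151 did not pass limma. Itga3 was at 2855 and 1828 in SG and at 992 and 978 in dSG (log2 ratio -1.21, limma adjusted p 0.0801), Itga6 had a log2 ratio of -0.56 (adjusted p = 0.140) and Itgb1 one of 0.19 (adjusted p = 0.494). Itgb4 had -1.16 (limma adjusted p 0.122) and Itga7 -0.71 (limma adjusted p 0.261). The immunoglobulin partners of CD9 and CD81 were Ptgfrn, with -1.10 (limma adjusted p 0.0948), and Igsf8, with -1.51 (limma adjusted p 0.127). Pdcd6ip, Tsg101 and Sdcbp, which sort tetraspanins into vesicles, had log2 ratios of -0.066, 0.070 and 0.20.

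Promoter windows of 300 bases (250 before to 50 after the start, RefSeq on GRCm38.p6) were at hand for 26 of the 27 members. The member without a window was Tspan18, which was called lower. Of the windows, 4 are printed for Cd82, Tspan17, Tspan8 and Cd9, members that were lower in both dSG libraries, to set them beside each other. Capitals mark the GC box GGGCGG, the half-site AGGTCA that nuclear receptors such as RA receptors bind and the TATA box TATAAA, each on either strand, none overlapping.
Cd82, chr2:93462901-93463200, minus strand: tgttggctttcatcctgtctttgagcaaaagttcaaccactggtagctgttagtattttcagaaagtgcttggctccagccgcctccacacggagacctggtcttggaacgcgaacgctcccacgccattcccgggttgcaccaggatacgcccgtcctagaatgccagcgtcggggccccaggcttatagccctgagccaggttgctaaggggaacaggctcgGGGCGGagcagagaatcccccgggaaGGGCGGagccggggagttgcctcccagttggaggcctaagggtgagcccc
Tspan17, chr13:54789155-54789454, plus strand: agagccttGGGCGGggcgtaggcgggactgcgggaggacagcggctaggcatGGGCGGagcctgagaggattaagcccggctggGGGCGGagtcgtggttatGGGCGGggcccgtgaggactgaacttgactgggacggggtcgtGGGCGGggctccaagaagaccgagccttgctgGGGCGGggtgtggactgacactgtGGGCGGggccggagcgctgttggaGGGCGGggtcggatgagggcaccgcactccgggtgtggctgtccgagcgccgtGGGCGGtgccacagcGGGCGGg
Tspan8, chr10:115817034-115817333, plus strand: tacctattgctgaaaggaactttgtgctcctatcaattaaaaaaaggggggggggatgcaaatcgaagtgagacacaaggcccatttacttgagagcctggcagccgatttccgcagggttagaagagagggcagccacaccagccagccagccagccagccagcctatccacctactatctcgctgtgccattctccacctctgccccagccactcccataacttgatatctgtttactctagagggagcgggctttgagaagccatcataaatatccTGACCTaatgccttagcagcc
Cd9, chr6:125494711-125495010, minus strand: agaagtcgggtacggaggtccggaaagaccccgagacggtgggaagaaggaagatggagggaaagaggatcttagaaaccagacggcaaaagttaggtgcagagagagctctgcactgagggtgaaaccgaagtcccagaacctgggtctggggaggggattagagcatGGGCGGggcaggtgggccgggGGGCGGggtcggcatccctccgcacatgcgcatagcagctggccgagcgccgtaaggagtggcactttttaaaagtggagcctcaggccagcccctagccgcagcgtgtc
The windows differ in kind although the values of all 4 transcripts were lower in dSG. The Tspan17 window holds 10 GC boxes and 29 CpG dinucleotides at 72.0% GC, whereas that of Tspan8 holds no GC box and 5 CpG at 51.7% GC, and those of Cd82 and Cd9 hold 2 GC boxes each with 16 and 18 CpG. A GC box was found in 14 of the 26 member windows and in 35.6% of all 32817 windows. The half-site was found in 3 of the 26 (Tspan8, where it reads TGACCT, Cd151 and Tspan7) and in 16.3% of all windows. The TATA box was found in 2 of the 26 (Cd81 and Tspan12) and in 13.6% of all windows. Other motifs searched on both strands were the ETS site CCGGAAG, in 2 of the 26 and 8.86% of all windows, the E-box CACGTG, in 1 and 7.15%, the AP-1 site TGACTCA, in 1 and 5.20%, and the CCAAT box, in 7 and 37.4%. Such matches are descriptions of these letters and not evidence of binding, and the start used for Tspan8 lies 452 bases from the gene start of the annotation. The starts used for Cd63 and Tspan3 lie farther from it, at 8356 and 4407 bases, so their windows may not be the promoters in use.

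Members also lie close together elsewhere in the genome. Cd151 and Tspan4 lie 3.77 kb apart on chromosome 7 and on the same strand, and their ratio within a library was 1.63 and 2.64 in SG and 1.41 and 1.20 in dSG. Tspan32 and Cd81 lie 33.1 kb apart on the same chromosome, 1 hardly detected and the other among the most abundant members. Tspan11 and Tspan9 lie 7.42 kb apart on chromosome 6 on opposite strands, and likewise Tspan11 had at most 6 reads in a library while Tspan9 had 360 to 2458.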

How the data were processed

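Total RNA was extracted with Trizol from 2 SG and 2 dSG samples, and directional paired-end libraries were sequenced. Subread was the authors' aligner, GRCm38 their build and featureCounts 1.5.3 their counter, while strand setting, annotation release and handling of multi-mapping reads are not stated in these sources. The authors deposited a signal per gene, a normalized count obtained as reads over a library size factor. Dividing by the smallest step of each library gave whole reads for 100% of values (tolerance 0.01), and on these the count tests edgeR and DESeq2 called 1044 and 1936 genes. The table is named RPKM, but its values are not scaled by length. Its columns of fold changes, standard errors, statistics and p-values are the authors' own DESeq2 comparison and were not used. The table's group names SSC and DSG were matched to SG and dSG with their replicate numbers.

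Limma 3.58.1 with an intensity trend was run in R 4.3.3 on log2(normalized count + 4) over 14108 genes with at least 20 in at least 2 libraries, with condition as the only term, and genes were called at an adjusted p under 0.05 (Benjamini-Hochberg). Alternatives used edgeR 4.0.16 and DESeq2 1.42.0, other scalings, filters and pseudocounts, sample weights, a lowess correction for the GC content of the longest transcript, the replicate number as a block and each library left out. All members are named; values in every library were to be given for members that were called, were among the 8 with the highest mean, had an absolute log2 fold change of at least 1, or were Tspan8 or Cd9, and were given for the others too. Lengths, overlaps and positions come from GENCODE M21 on GRCm38. Members, lists and tests were chosen with earlier results of these data known.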

Additional observations from a re-analysis of the deposited data

How the results depend on the processing

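The 3 tetraspanins called lower (Cd82, Tspan18 and Tspan8) and 0 called higher were the calls under quantile normalization, upper quartile scaling, median centring, TMM, no filter, pseudocounts of 40 and 0.4, limma without trend and edgeR. DESeq2 added Tspan17, sample weights exchanged Tspan8 for Tspan17, and a filter of 40 in every library removed Tspan8 from the test, where Cd82 and Tspan18 were called. Under the main filter Tspan8 had passed through its SG values alone, which fixed its direction in advance. The GC correction gave 6 lower and 2 higher, and together with the replicate block 8 lower and 2 higher. Leaving out 1 library gave 2 to 12 lower and 0 to 5 higher: without an SG library the spread comes from the close dSG pair and most genes pass, without a dSG library it comes from the SG pair alone. Over all genes, 856 were called, against 2940 with the replicate block, 3005 with the GC correction (1149 higher and 1856 lower), 4098 with both, 1936 by DESeq2, 320 under the stricter filter and 475 to 11452 with 1 library left out. The replicate numbers mark no shared culture in the labels, and with 2 pairs (correlation of same-numbered deviations 0.23 across genes) they were not taken to pair the samples. The replicate block gave 5 lower, adding Tspan17 and Tspan5, and 0 higher.
Of 376 fold changes of single members under the alternatives, 15 turned sign, all in uncalled members. After the GC correction, with or without the block, Tspan3 was at -0.096, Tspan4 at 0.37, Tspan7 at -0.31 and Tspan2 at -0.026. With 1 library left out, Tspan2 ranged from -0.25 to 1.25, Tspan4 from -0.46 to 0.14, Tspan6 from -0.59 to 0.30, Tspan7 from -0.035 to 0.33 and Tspan31 from -0.56 to 0.10; the cause was not tested. Depth limits Tspan8, Tspan6, Tspan2 and the 7 members under the filter, with at most 16 reads for any of them in SG replicate 1.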
